A study of Mus musculus with 33 samples.

Results

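The genes described here form the transforming growth factor β (TGF-β) and bone morphogenetic protein (BMP) module: the ligands of this superfamily, their receptors, the proteins that hold or block the ligands outside the cell, and the Smad and Id proteins that act inside it. Members were chosen by gene name, among protein-coding genes with at least 10 reads summed over 33 libraries. The names were Tgfb1 to Tgfb3, Tgfbr1 to Tgfbr3, all Bmp, Bmpr, Acvr, Inha, Inhb, Gdf and numbered Smad genes, Id1 to Id3, Ltbp1 to Ltbp4, and Nog, Grem1, Chrd, Fst, Tgfbi and Bambi. Of 62 genes with such a name, 60 had enough reads and are the members, out of 36527 genes tested and 19970 protein-coding genes tested. Gdf1 (0 reads) and Inhbc (9 reads) did not pass. The filter sums over every group, and 15 of the 60 members held fewer than 1000 reads in all.

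Ligands of the superfamily are secreted dimers that bring together type I and type II receptor kinases. The type I receptors then phosphorylate receptor Smads, Smad2 and Smad3 for TGF-β and activin and Smad1, Smad5 and Smad9 for BMPs, which join Smad4 and enter the nucleus. TGF-β leaves the cell in a latent complex that latent TGF-β binding proteins tether to the matrix, whereas BMPs are held in check by antagonists such as noggin and gremlin. In the mammary gland TGF-β is known as a brake on ductal growth that also takes part in the spread of tumors, and BMPs are known for their part in the fate of luminal and basal cells.

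The libraries were made from 33 mice, with 1 library per mouse. Every mouse carried Cre recombinase driven by the MMTV promoter and the mTmG reporter, which turns from red to green where Cre is active. The study gives an FVB background for the Cre and PyMT lines and a backcross to FVB for the floxed line. It gives none for the mTmG line. WT mice were Pthrp wt/wt and KO mice were Pthrp flox/flox, so that Cre removes the loxP-flanked part of Pthlh, the gene of parathyroid hormone-related protein (PTHrP), in the mammary epithelium of KO mice. The tumor mice also carried the PyMT oncogene under the MMTV promoter, and the tumor-free mice did not. WT tumors came from mice of 6, 8 and 10 weeks (n = 3 each) and KO tumors from mice of 8, 10 and 12 weeks (n = 3 each). WT glands came from mice of 6, 8, 10 and 12 weeks and KO glands from mice of 8, 10 and 12 weeks (n = 2 each). A single WT tumor of 12 weeks entered no comparison. Tumor or gland tissue was digested, and the cells were kept in serum-containing medium for days before GFP+ cells were sorted. All levels are therefore those of cells after culture. The control glands share the Cre, the reporter, the culture and the sort with the tumors.

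The libraries held 28419983 to 130981596 counted reads (median 46351179). Ribosomal RNA genes took a median of 0.0499% of the reads in WT tumors, 0.952% in KO tumors, 0.0116% in WT glands and 6.20% in KO glands. Levels are CPM, the share of a gene in the counted reads scaled to a fixed library size and adjusted with TMM, and CPM of different genes are compared only after division by exon length. Pthlh was measured at 1.46, 2.65 and 6.67 CPM (lowest, median and highest library) in WT tumors and at 1.35, 1.64 and 2.29 CPM in KO tumors, and counts of the whole gene do not show whether the part between the loxP sites was lost. WT glands against KO glands gave a log2 difference for Pthlh of 0.50 ± 0.26 (SE, adjusted p = 0.455). From its alignments, the study reports that no KO sample had reads on the Pthlh exon at the loxP sites. The gland label was checked with lists of 10 markers per cell type. Luminal markers summed to 6029.6 to 11496 CPM in WT tumors, 8373 to 12716 in WT glands, 7573 to 11364 in KO tumors and 7256 to 10536 in KO glands.

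Markers of other cell types differed between tumors and glands. All 10 basal or myoepithelial markers fell in the tumors of both genotypes, with sums of 1769.6 to 3694 CPM in WT tumors against 5311 to 20766 in WT glands and 1612 to 5420.4 in KO tumors against 5561 to 19725 in KO glands. The fibroblast markers summed to 124 to 788 CPM in WT tumors against 1216 to 4359.9 in WT glands, and 6 of 10 fell. In KO mice they summed to 83.8 to 1104 CPM in tumors against 445 to 3685 in glands, and 2 of 10 fell. Of the endothelial markers, 6 of 10 fell in WT tumors and 1 in KO tumors, at sums of 1.95 to 3.99 CPM in WT tumors and 3.19 to 11.2 CPM in WT glands. Macrophage markers summed to 9.65 to 20.1 CPM in WT tumors and 7.33 to 53.8 in WT glands, where 1 of 10 rose and 3 fell, and in KO mice 3 rose and none fell. Of 10 adipocyte markers, 1 rose and 2 fell in WT and 1 rose in KO tumors, and Cfd held 3 reads or fewer in every library of these comparisons. Lymphocyte markers summed to 0.0293 to 0.834 CPM in WT tumors, 0.0443 to 1.27 in WT glands, 0.0146 to 0.700 in KO tumors and 0.0492 to 18.0 in KO glands, and 1 of 10 fell in each genotype. The value of 18.0 CPM came from KO gland replicate 2 of week 10, where no other library of the series exceeded 1.27 CPM. Without that library 17 members were called between KO tumors and glands, as with it (Smad9 was lost and Id3 gained), and 5 in place of 11 in week 10 alone. The study reports that fibroblasts and adipose tissue of the gland stayed red under the reporter, and the sort kept GFP+ cells. In libraries of many cells, fewer cells of a type and less RNA per cell cannot be told apart. The part of these cells in the results below was not tested.

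**Figure D1:**
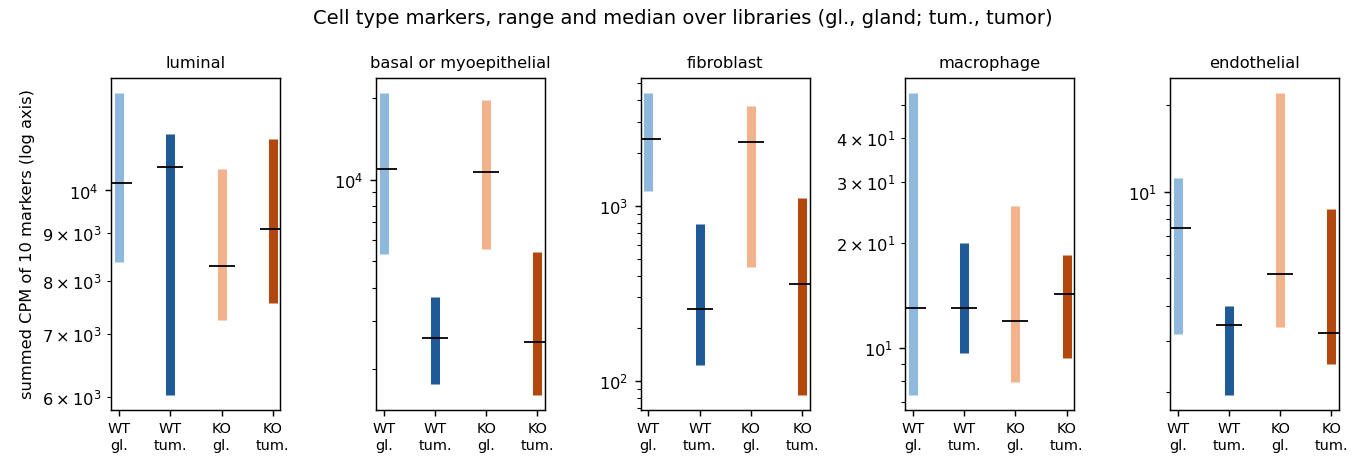
Summed CPM (log axis) of 10 markers for each of 5 cell types in WT glands, WT tumors, KO glands and KO tumors of the averaged comparisons. Each bar runs from the lowest to the highest library and the black line is the median. The basal bars of tumors lie below those of glands in both genotypes, the fibroblast bars do so in WT mice, and the luminal bars overlap.

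Promoter sequence is shown for 4 members that the results turn on. Id2 and Id3 are textbook targets of BMP signaling that moved in opposite directions in WT tumors, Inha was lower and Ltbp2 was higher in every tumor library than in every gland library of its genotype, within the averaged comparisons given below. Each window holds 250 bases before and 50 bases from the transcription start given by RefSeq (GRCm38.p6), on the strand of the gene, 5′ to 3′. Capitals mark GTCTG or its reverse complement CAGAC, the box bound by Smad3 and Smad4, and GGCGCC, a GC-rich element bound by Smad1 and Smad5. The windows are chr12:25096043-25096342, minus strand for Id2, chr4:136143572-136143871, plus strand for Id3, chr1:75507359-75507658, plus strand for Inha and chr12:84876442-84876741, minus strand for Ltbp2.
Id2 promoter: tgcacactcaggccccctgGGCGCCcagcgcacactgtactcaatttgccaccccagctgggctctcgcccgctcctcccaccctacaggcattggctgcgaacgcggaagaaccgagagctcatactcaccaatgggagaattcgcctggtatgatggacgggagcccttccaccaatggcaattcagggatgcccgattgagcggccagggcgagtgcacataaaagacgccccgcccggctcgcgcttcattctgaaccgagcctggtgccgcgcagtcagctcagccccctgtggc
Id3 promoter: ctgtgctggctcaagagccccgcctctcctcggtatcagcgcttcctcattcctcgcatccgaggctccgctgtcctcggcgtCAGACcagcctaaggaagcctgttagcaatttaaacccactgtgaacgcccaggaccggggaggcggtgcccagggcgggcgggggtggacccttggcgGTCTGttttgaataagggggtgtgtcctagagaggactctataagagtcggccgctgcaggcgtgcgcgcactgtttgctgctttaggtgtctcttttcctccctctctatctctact
Inha promoter: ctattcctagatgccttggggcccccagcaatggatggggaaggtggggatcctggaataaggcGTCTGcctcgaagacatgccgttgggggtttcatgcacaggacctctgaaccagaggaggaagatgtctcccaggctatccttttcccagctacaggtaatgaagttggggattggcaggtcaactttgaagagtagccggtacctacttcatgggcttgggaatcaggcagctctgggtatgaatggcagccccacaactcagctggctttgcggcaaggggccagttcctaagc
Ltbp2 promoter: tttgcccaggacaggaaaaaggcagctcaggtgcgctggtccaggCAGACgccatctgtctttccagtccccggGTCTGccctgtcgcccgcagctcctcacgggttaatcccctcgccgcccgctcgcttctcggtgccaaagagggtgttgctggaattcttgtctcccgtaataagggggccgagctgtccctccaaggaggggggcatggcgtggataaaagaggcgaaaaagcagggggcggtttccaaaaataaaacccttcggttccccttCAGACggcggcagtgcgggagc

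The Id2 window held 1 GGCGCC and no GTCTG or CAGAC, and the Id3 window held 2 GTCTG or CAGAC boxes and no GGCGCC. The Inha window held 1 such box and the Ltbp2 window held 3. By symbol, 42 of the 60 members matched 52 windows, and Id1, Tgfb3, Gdf5, Bmp7 and Bmp3 were among those that did not. GTCTG was found, on either strand, in 25 of the 52 windows (48.1%) and in 49.6% of all 32851 windows. GGCGCC was found in 14 of the 52 (26.9%) and in 11.9% of all windows. A match is a string of letters and not a measured binding site.

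The first question was how the members differed between tumors and tumor-free glands of the same genotype. A gene was called when its adjusted p was under 0.1 and its fold change over 1.5 (edgeR's quasi-likelihood test). In WT mice, averaged over weeks 6, 8 and 10 (9 tumors, 6 glands), 23 of the 60 members were called (38.3%), against 15.7% of all genes tested and 20.6% of the protein-coding ones, to which all members belong. Of these, 16 fell (26.7% of members against 9.53% of all genes and 13.1% of protein-coding genes) and 7 rose (11.7% against 6.21% and 7.49%). The median log2 fold change was -0.26 over the members and 0.03 over all genes. In KO mice, averaged over weeks 8, 10 and 12 (9 tumors, 6 glands), 17 members were called (28.3%), against 10.6% of all genes and 15.2% of protein-coding genes. Here 10 rose (16.7% against 5.16% and 7.05%) and 7 fell (11.7% against 5.44% and 8.18%), with a median of 0.07 over the members (0.06 with Bmp10, at 0 reads in every KO gland, at its bound) and 0.09 over all genes. With the log10 share of ribosomal RNA as a covariate, 23 members were called in WT mice and 16 in KO mice.

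The comparisons of WT and KO mice used different animals. In both of them, 7 members rose (Gdf5, Tgfb2, Tgfb3, Ltbp2, Tgfbr3, Id1 and Id2) and 6 fell (Bmp3, Bmp7, Bmp8b, Inha, Bmpr1b and Ltbp4). Of all genes, 3.12% rose in both and 4.49% fell in both, and of protein-coding genes 4.59% and 7.13%. None of the members was called in opposite directions. A further 10 fell in WT mice and were not called in KO mice (5.01% of all genes and 5.93% of protein-coding genes). In KO mice 3 rose (2.01% and 2.43%) and 1 fell (0.936% and 1.05%) that were not called in WT mice, and 33 were called in neither. Statements on the overlap of tumors and glands, here and below, cover the 9 tumors and 6 glands of each averaged comparison and not the WT tumor of week 12 or the WT glands of week 12. In 3 members every WT tumor library lay above every WT gland library (Gdf5, Tgfb3 and Ltbp2), where 2.45% of all genes did so, and in 5 every WT tumor lay below (Bmp1, Bmp3, Bmp7, Bmpr1b and Inha, against 3.53% of all genes). In KO mice 5 members lay wholly above (Gdf5, Tgfb2, Tgfb3, Ltbp2 and Id1, against 1.99%) and 4 wholly below (Bmp3, Bmp7, Bmpr1b and Inha, against 1.44%).

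**Figure D2:**
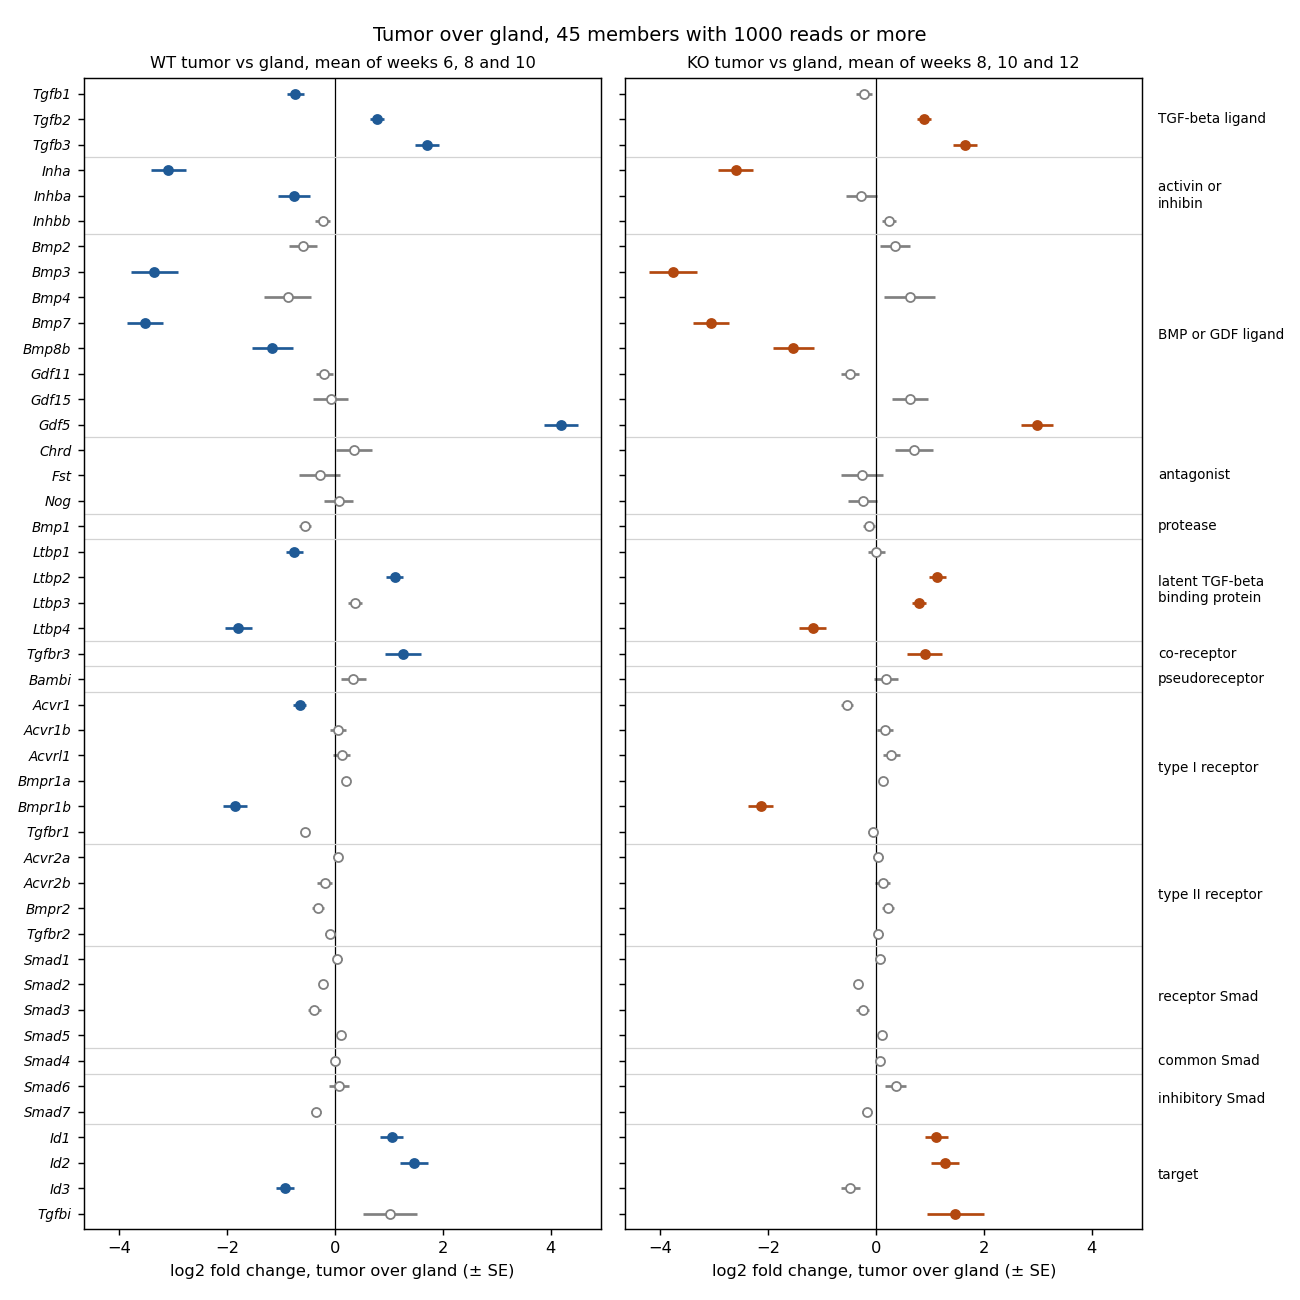
Log2 fold change (± SE) of tumors over glands for the 45 members with 1000 reads or more, in WT mice (left) and KO mice (right), grouped by role. Filled points were called and open points were not. Smads and type II receptors cluster near 0, and the points farthest from 0 are ligands, with Gdf5 to the right and Bmp3, Bmp7 and Inha to the left in both panels.

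The 3 TGF-β ligands moved apart. Tgfb3 and Tgfb2 rose in the tumors of both genotypes, whereas Tgfb1, the ligand most studied in tumors, fell in WT tumors. Per kilobase of exon, Tgfb3 was the most abundant of them in WT tumors, with a median of 94.0 CPM per kb, followed by Tgfb2 at 9.05 and Tgfb1 at 2.97. In WT glands the medians were 28.4 for Tgfb3, 4.94 for Tgfb2 and 5.06 CPM per kb for Tgfb1.

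Tgfb3 was at 79.6, 96.1 and 116 CPM (lowest, median and highest) in WT glands and 173, 318 and 595 CPM in WT tumors. KO glands held 64.2, 112 and 141 CPM and KO tumors 198, 351 and 469 CPM. The 9 tumors were above the 6 glands without overlap in each genotype. Tgfb3 rose 3.28-fold in WT tumors, a log2 fold change of 1.71 ± 0.22 (SE, adjusted p = 2.28e-06), and 3.15-fold in KO tumors, 1.65 ± 0.22 (SE, adjusted p = 6.29e-06). Tgfb2 was at 18.0, 28.6 and 46.4 CPM in WT glands and 34.4, 52.4 and 59.9 CPM in WT tumors, and at 27.9, 30.6 and 43.2 CPM in KO glands and 47.4, 56.8 and 73.6 CPM in KO tumors. KO tumors all lay above KO glands, while WT tumors and WT glands overlapped through 1 gland of week 10 at 46.4 CPM. The log2 fold changes of Tgfb2 were 0.78 ± 0.13 (SE, adjusted p = 6.21e-05) in WT and 0.88 ± 0.13 (SE, adjusted p = 1.99e-05) in KO mice. For Tgfb1, WT glands held 19.3, 25.5 and 31.6 CPM and WT tumors 11.4, 15.0 and 21.6 CPM, with a narrow overlap, and KO glands and tumors held 14.2, 21.3 and 26.8 and 14.3, 18.6 and 24.1 CPM, with a wide one. Tgfb1 fell in WT tumors by a log2 fold change of -0.73 ± 0.15 (SE, adjusted p = 0.000703), and its KO value of -0.23 ± 0.15 (SE, adjusted p = 0.432) did not pass.

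Activins are dimers of inhibin β subunits, and inhibins pair such a subunit with the α subunit made by Inha. Inha was at 2.47, 3.51 and 5.38 CPM in WT glands and 0.0611, 0.444 and 1.26 CPM in WT tumors, and at 2.07, 2.61 and 4.26 CPM in KO glands and 0.194, 0.401 and 0.832 CPM in KO tumors. None of the 9 tumors reached the lowest of the 6 glands of its genotype. Inha fell by a log2 fold change of -3.09 ± 0.32 (SE, adjusted p = 8.30e-08) in WT tumors and -2.60 ± 0.32 (SE, adjusted p = 2.11e-06) in KO tumors. Inhba, the βA subunit and one of the most abundant members, was at 328, 563 and 653 CPM in WT glands and 74.7, 299.6 and 563 CPM in WT tumors, which overlapped. Its WT value of -0.76 ± 0.29 (SE, adjusted p = 0.0743) passed, but the call was lost with the replicate number as a block (adjusted p = 0.175) and in 10 of the 15 fits that left out 1 library (highest adjusted p = 0.171). Those libraries were both glands of weeks 6 and 10, gland replicate 2 of week 8, tumor replicates 1 and 2 of week 6, 2 and 3 of week 8 and 1 of week 10. Inhbb, the βB subunit, was not called in either genotype (-0.23 ± 0.14 and 0.24 ± 0.14). Inhbe held 0 to 5 reads per library in KO tumors, 21 in all, and 1 read in KO glands. The test called it higher in KO tumors (adjusted p = 0.0702), but not with DESeq2, without the read filter, with the replicate block or with weeks 8 and 10 only, and leaving out any 1 of 7 of the 15 libraries (every KO gland but replicate 2 of week 10, KO tumor replicate 1 of week 10 and replicate 3 of week 12) ended the call. Without KO gland replicate 2 of week 10 its log2 fold change went from 3.17 to 4.13.

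Among the 19 BMP and GDF ligands, 1 rose (5.26%, against 6.21% of all genes and 7.49% of protein-coding genes) and 7 fell (36.8% against 9.53% and 13.1%) in WT tumors. In KO tumors 1 rose (5.26% against 5.16% and 7.05%) and 3 fell (15.8% against 5.44% and 8.18%). Of the 7 that fell in WT tumors, 3 (Gdf6, Gdf7 and Gdf10) rest on few reads, and their calls were lost under settings given below. Gdf5, a growth and differentiation factor best known from joint formation, showed the largest fold change of all members in WT mice. WT glands held 0.0365, 0.225 and 0.272 CPM and WT tumors 2.36, 3.85 and 4.55 CPM, and KO glands held 0.217, 0.396 and 0.720 and KO tumors 1.87, 3.28 and 4.80 CPM. Tumors and glands did not overlap in either genotype, although gland libraries held only 2 to 32 reads in WT and 6 to 26 in KO mice. The log2 fold changes were 4.19 ± 0.31 (SE, adjusted p = 8.89e-10) in WT and 2.99 ± 0.30 (SE, adjusted p = 1.34e-07) in KO mice, and the WT value was 4.84 without gland replicate 1 of week 6. Exons of Gdf5 (chr2:155941023-155945367, GRCm38, Gencode M21) share 936 bases with Gm15557 on the opposite strand, and no source used here gives the strand option used in counting, so that reads of the 2 genes may not be told apart. The same limit holds for Ltbp2 (764 bases shared with D030025P21Rik), Tgfb3 (257 with Gm48008 and 163 with Gm37804), Bmp6 (224 with Txndc5), Bmp8b (133 with Ppie and 339 with Gm17244) and Tgfb2 (124 with Gm29491), and Tgfbr3 shares 297 bases with Gm43422 on its own strand.

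Bmp7, a BMP with a known role in epithelial organs, was among the members that fell furthest. It was at 21.5, 40.9 and 82.2 CPM in WT glands against 1.63, 3.11 and 6.95 CPM in WT tumors, and at 15.1, 50.5 and 60.2 CPM in KO glands against 1.75, 4.63 and 10.9 CPM in KO tumors. All 6 glands were above all 9 tumors of their genotype. Bmp7 fell 11.5-fold in WT tumors, a log2 fold change of -3.52 ± 0.34 (SE, adjusted p = 2.80e-08), and 8.33-fold in KO tumors, -3.06 ± 0.33 (SE, adjusted p = 4.39e-07). Bmp3, which is known to oppose other BMPs, was at 3.78, 7.58 and 19.0 CPM in WT glands and 0.142, 0.617 and 1.87 CPM in WT tumors, and at 1.97, 7.22 and 15.0 CPM in KO glands and 0.0845, 0.574 and 1.60 CPM in KO tumors, again with no overlap. Its log2 fold changes were -3.35 ± 0.44 (SE, adjusted p = 2.33e-06) and -3.77 ± 0.45 (SE, adjusted p = 1.43e-06). These genes fell together with the basal marker sum, and the part of basal cells was not tested.

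Bmp8b was at 1.46, 2.91 and 5.23 CPM in WT glands and 0.288, 1.37 and 2.46 CPM in WT tumors, and at 1.94, 5.38 and 5.73 and 0.296, 0.963 and 4.29 CPM in KO glands and tumors, with overlap in each genotype. Its log2 fold changes were -1.16 ± 0.38 (SE, adjusted p = 0.0311) in WT and -1.53 ± 0.38 (SE, adjusted p = 0.00561) in KO mice. Without WT gland replicate 1 of week 6 or of week 10 the WT call was lost, with adjusted p up to 0.211, and with weeks 8 and 10 only the KO call was (0.115). With each library left out in turn, the WT log2 fold change of Bmp8b ranged from -1.37 to -0.76. Bmp8a, its close paralog, was not called (0.09 ± 0.28 and 0.54 ± 0.30), and reads of the pair may be split between them. Bmp6 was called lower in WT mice (-1.33 ± 0.30 SE, adjusted p = 0.00189), from 0.482 to 1.02 CPM (19 to 98 reads) in glands to 0.0638 to 0.910 CPM (3 to 34 reads) in tumors, and its KO value was -0.26 ± 0.32. Gdf6, Gdf7 and Gdf10 were also called lower in WT tumors, on few reads. In WT libraries, glands held 5 to 28 reads of Gdf6, 0 to 4 of Gdf7 and 1 to 46 of Gdf10, and tumors held 1 to 15, 0 to 1 and 0 to 9. The Gdf6 call (adjusted p = 0.0192) was lost without gland replicate 2 of week 8 (0.204) and with weeks 8 and 10 only (0.116). The Gdf10 call (0.0222) was lost without gland replicate 2 of week 6, 8 or 10 (up to 0.509), with the replicate block (0.113) and with weeks 8 and 10 only (0.212). Its log2 fold change of -2.86 went to -1.49 without gland replicate 2 of week 10 and to -3.70 without tumor replicate 1 of week 6, and that of Gdf7 went from -2.50 to -1.09 without the same gland. The Gdf7 call (0.0846) was lost without any 1 of 10 of the 15 libraries, namely 4 glands (replicate 1 of week 6, both of week 8, replicate 2 of week 10) and 6 tumors (replicates 2 and 3 of week 6, replicate 1 of week 8, all of week 10). It held in 2 of 8 settings, edgeR with TMM and edgeR with the size factors of DESeq2, and was not made with DESeq2 (no adjusted p given), without the read filter (0.129), with ribosomal RNA as a covariate (0.105), with the replicate block (0.115), in a fit of the groups compared (0.146) or with weeks 8 and 10 only (0.211). In KO mice glands held 0 to 2 and tumors 0 to 7 reads of Gdf10, which was not called.

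The 11 other ligands were not called in either genotype. Bmp4, a ligand of mammary development, was at 0.487, 0.788 and 1.43 CPM in WT glands and 0.183, 0.323 and 1.29 CPM in WT tumors (-0.87 ± 0.44 SE, adjusted p = 0.187), and at 0.246, 0.469 and 0.665 and 0.287, 0.410 and 3.59 CPM in KO glands and tumors (0.62 ± 0.48 SE, adjusted p = 0.525). Bmp2, its close relative, was at 1.55, 4.44 and 6.12 CPM in WT glands and 1.38, 2.34 and 6.05 CPM in WT tumors (-0.59 ± 0.26 SE, adjusted p = 0.133), and had 0.35 ± 0.27 (SE, adjusted p = 0.544) in KO mice. DESeq2 called it lower in WT tumors (adjusted p = 0.0763), the only 1 of 8 settings that did. Gdf15, a stress-responsive ligand, was at 2.95, 4.07 and 5.23 CPM in WT glands and 1.17, 2.91 and 8.69 CPM in WT tumors (-0.08 ± 0.32 SE, adjusted p = 1.000), and had 0.63 ± 0.33 (SE, adjusted p = 0.267) in KO mice. The groups of all these ligands overlapped. Gdf11, which acts through activin receptors, at 17.7, 26.2 and 38.1 CPM in KO glands and 14.5, 18.2 and 23.8 CPM in KO tumors, had an adjusted p of 0.0482 at a fold change of 1.40.

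**Figure D3:**
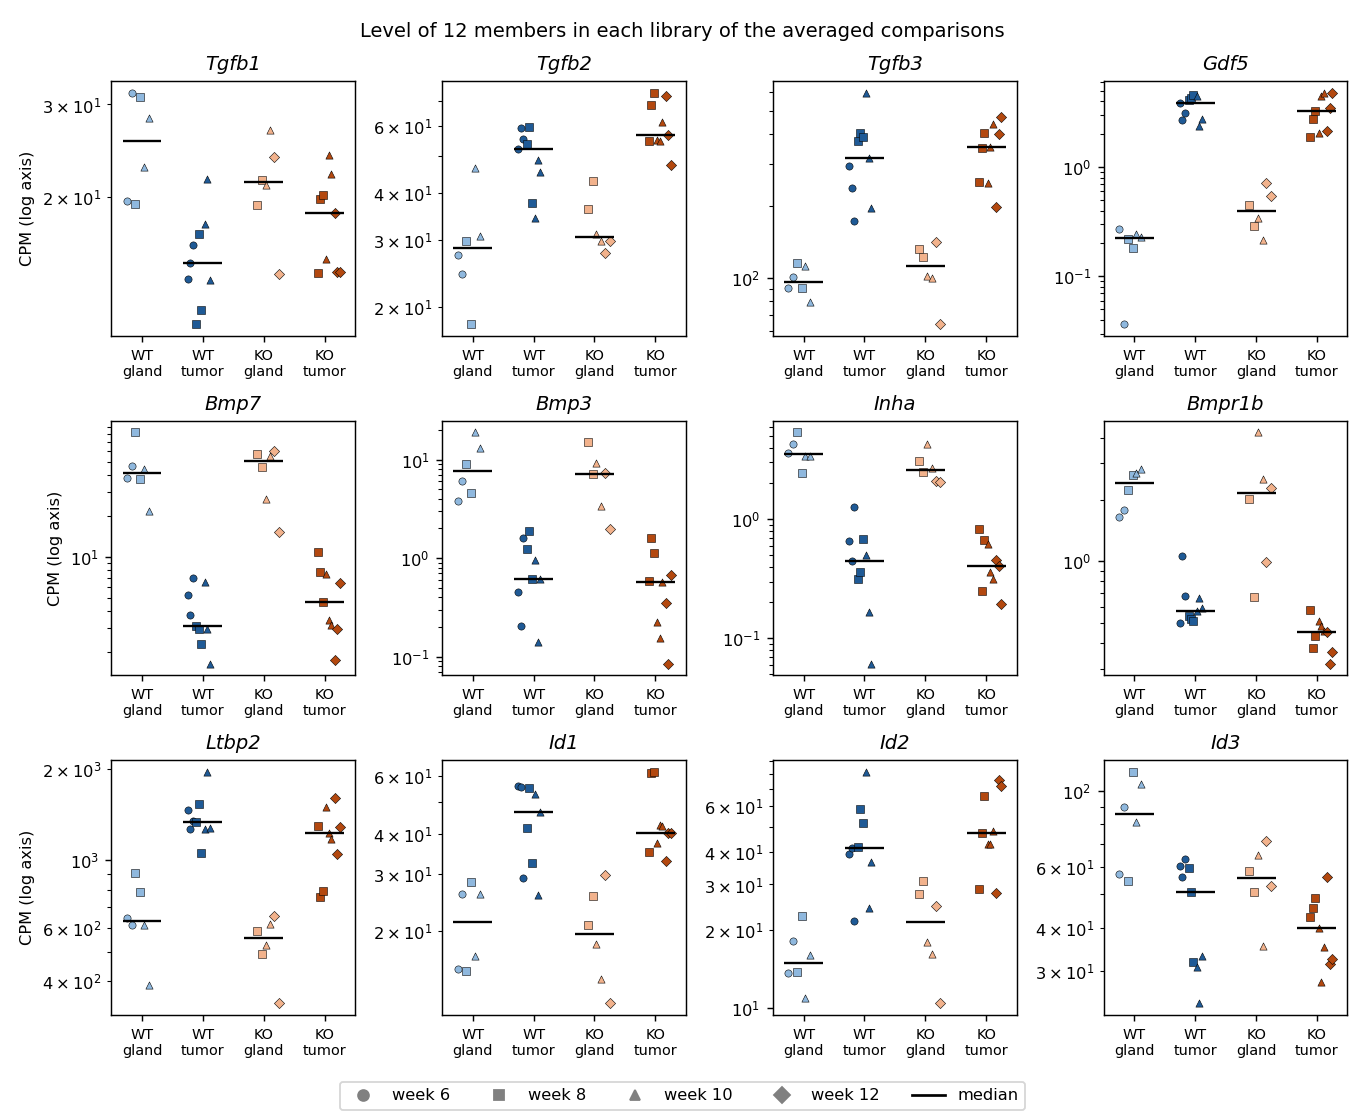
CPM (log axis) of 12 members in every library of the averaged comparisons, by genotype and tissue, with the week as the shape of the point and the median as a line. For Tgfb3, Gdf5, Bmp7, Bmp3, Inha, Bmpr1b and Ltbp2 the tumor and gland points of a genotype do not overlap, whereas for Tgfb1 and Id3 they overlap in both genotypes.

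The 4 antagonists bind BMPs or activins outside the cell. Noggin (Nog), chordin (Chrd) and follistatin (Fst) were not called in either genotype, with respective WT log2 fold changes of 0.07 ± 0.27, 0.35 ± 0.34 and -0.28 ± 0.38 (SE) and KO values of -0.25 ± 0.27, 0.71 ± 0.35 and -0.26 ± 0.38. Gremlin (Grem1) was called lower in WT tumors (-1.60 ± 0.56 SE, adjusted p = 0.0473), with WT glands at 0.133, 0.657 and 2.04 CPM and WT tumors at 0.0587, 0.191 and 1.04 CPM. WT glands held 6 to 102 reads per library and WT tumors 2 to 51. The 2 groups overlapped, and the call was lost without gland replicate 2 of week 6, 8 or 10 (adjusted p up to 0.640) and with weeks 8 and 10 only (0.272). Without gland replicate 2 of week 8 the log2 fold change went from -1.60 to -0.60. The fibroblast marker sums given above were also lower in these tumors, and their part in this result was not tested. Bmp1, in spite of its name a protease that cuts matrix proteins and chordin, lay lower in all 9 WT tumors (321, 398 and 484 CPM) than in all 6 WT glands (526, 579 and 688 CPM). Its adjusted p was 0.000863, but its fold change of 1.47 missed the limit of 1.5. In KO mice Bmp1 was at 269.6, 408 and 496 CPM in tumors and 306, 451 and 554 CPM in glands (-0.13 ± 0.12 SE, adjusted p = 0.600).

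Latent TGF-β binding proteins (LTBPs) anchor latent TGF-β to the matrix, except for Ltbp2, which is known as a matrix protein that does not bind latent TGF-β. The 4 genes split. Ltbp2, the member with the most reads (1763372), was at 387, 629 and 908 CPM in WT glands and 1058, 1342 and 1959 CPM in WT tumors, and at 337, 556 and 657 CPM in KO glands and 755, 1228 and 1605 CPM in KO tumors. All 9 tumors of these comparisons were above the 6 glands of their genotype, and Ltbp2 rose by a log2 fold change of 1.11 ± 0.16 (SE, adjusted p = 1.08e-05) in WT and 1.14 ± 0.16 (SE, adjusted p = 1.31e-05) in KO mice. The WT tumor of week 12, which is in no comparison, held 669 CPM, within the range of the WT glands. Ltbp4 went the other way, from 4.98, 9.23 and 12.6 CPM in WT glands to 1.32, 2.32 and 5.43 CPM in WT tumors (-1.80 ± 0.25 SE, adjusted p = 5.95e-06) and from 4.38, 7.38 and 12.8 CPM in KO glands to 1.74, 3.09 and 4.75 CPM in KO tumors (-1.17 ± 0.25 SE, adjusted p = 0.00150). The highest tumors overlapped the lowest glands. Ltbp1 fell in WT tumors (-0.75 ± 0.16 SE, adjusted p = 0.00120), where glands held 272, 455 and 519.8 CPM and tumors 188, 239 and 323 CPM, and its KO value was 0.01 ± 0.16. Ltbp3 rose in KO tumors (0.79 ± 0.13 SE, adjusted p = 6.78e-05), from 138, 186 and 238 to 237, 318 and 414 CPM with an overlap at the edges, and its WT value of 0.37 ± 0.13 (SE, adjusted p = 0.0377) stayed under the fold limit.

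Most receptors differed little between tumors and glands. Of the 7 type I receptors, Bmpr1b, a BMP receptor, fell in both genotypes. It was at 1.65, 2.42 and 2.82 CPM in WT glands and 0.501, 0.576 and 1.06 CPM in WT tumors, and at 0.674, 2.14 and 4.26 CPM in KO glands and 0.317, 0.452 and 0.583 CPM in KO tumors. Tumors and glands did not overlap. The log2 fold changes were -1.86 ± 0.22 (SE, adjusted p = 5.74e-07) in WT and -2.14 ± 0.23 (SE, adjusted p = 3.00e-07) in KO mice. Its paralog Bmpr1a was far more abundant, with a median of 36.2 CPM per kb in WT tumors against 0.0966 for Bmpr1b, and it stood at 193, 196 and 219.7 CPM in WT glands, 199, 229.6 and 265 CPM in WT tumors, 193, 198 and 208 CPM in KO glands and 205, 214 and 243 CPM in KO tumors. Bmpr1a was not called, with log2 fold changes of 0.20 ± 0.06 (SE, adjusted p = 0.0164) and 0.13 ± 0.06 (SE, adjusted p = 0.163).

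Tgfbr1, the type I receptor of TGF-β, was at 113, 152 and 169.8 CPM in WT glands and 89.1, 98.6 and 113 CPM in WT tumors, which met at 113 CPM, and at 79.8, 101 and 121 and 83.6, 97.1 and 109.7 CPM in KO glands and tumors, which overlapped. Its WT value of -0.55 ± 0.08 (SE, adjusted p = 7.67e-06) was a fold change of 1.47 and so was not called. It passed the fold limit when WT gland replicate 1 of week 6 or of week 8 was left out, and its KO value was -0.07 ± 0.08 (SE, adjusted p = 0.788). Acvr1, a type I receptor of BMPs and activins, fell in WT tumors (-0.65 ± 0.12 SE, adjusted p = 0.000163), from 59.0, 76.5 and 87.4 to 37.5, 44.6 and 65.3 CPM, and missed the fold limit without WT gland replicate 1 of week 10. In KO mice Acvr1 had -0.54 ± 0.12 (SE, adjusted p = 0.00170), a fold change of 1.46. Acvr1b, Acvr1c and Acvrl1 were not called, although Acvr1c passed in KO mice with the replicate block (adjusted p = 0.0983).

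None of the 4 type II receptors was called in either averaged comparison. Tgfbr2 was at 98.3, 134 and 150.4 CPM in WT glands and 108, 123 and 150.3 CPM in WT tumors (-0.09 ± 0.09 SE, adjusted p = 0.597), and at 106, 114 and 154 and 104, 117 and 148 CPM in KO glands and tumors (0.04 ± 0.09 SE, adjusted p = 1.000). Bmpr2, the type II receptor of BMPs, was at 140.1, 183 and 227 CPM in WT glands and 113, 132 and 253 CPM in WT tumors (-0.31 ± 0.11 SE, adjusted p = 0.0551), and at 123, 143 and 154 and 145, 167 and 178 CPM in KO glands and tumors (0.22 ± 0.11 SE, adjusted p = 0.272). The groups of both genes overlapped in each genotype. The activin receptors Acvr2a and Acvr2b had log2 fold changes of 0.05 ± 0.09 and -0.19 ± 0.13 (SE) between WT tumors and glands, and of 0.04 ± 0.09 and 0.12 ± 0.14 between KO tumors and glands. Betaglycan (Tgfbr3), a co-receptor that presents the TGF-β ligands, rose. WT glands held 9.86, 18.6 and 42.2 CPM and WT tumors 19.5, 36.2 and 91.5 CPM (1.26 ± 0.33 SE, adjusted p = 0.00747), and KO glands 10.7, 30.1 and 41.6 CPM and KO tumors 14.5, 53.6 and 72.3 CPM (0.90 ± 0.33 SE, adjusted p = 0.0707). In KO mice tumor replicate 1 of week 12 held the lowest value, below 5 of 6 KO glands. The KO call of Tgfbr3 was lost without any 1 of 8 of the 15 libraries (both glands of week 8, gland replicate 1 of week 10 and 2 of week 12, tumor replicates 2 of week 8, 3 of week 10, and 2 and 3 of week 12), with adjusted p up to 0.207, and also with the replicate block (0.117), with ribosomal RNA as a covariate (0.102) and with weeks 8 and 10 only (0.266). Bambi, a pseudoreceptor without a kinase that blocks signaling, was at 3.05, 4.59 and 6.06 CPM in WT glands and 3.52, 4.70 and 13.1 CPM in WT tumors (0.34 ± 0.22 SE, adjusted p = 0.339), and at 3.15, 4.52 and 7.17 and 3.06, 5.48 and 8.43 CPM in KO glands and tumors (0.18 ± 0.23 SE, adjusted p = 0.804).

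None of the Smads was called in the averaged WT comparison. Smad4, shared by both branches, was at 111, 115 and 131 CPM in WT glands and 107, 117 and 133 CPM in WT tumors, with a log2 fold change of 0.01 ± 0.06 (SE) in WT and 0.08 ± 0.06 (SE) in KO mice. The receptor Smads Smad1, Smad2, Smad3 and Smad5 lay between -0.38 and 0.11 in both genotypes. Smad9, at 4 to 30 reads per KO gland library and 3 to 29 per KO tumor library, was called lower in KO tumors (-1.21 ± 0.44 SE, adjusted p = 0.0708), but the call was lost with the replicate block (adjusted p = 0.123), with weeks 8 and 10 only (0.108) and without any 1 of 9 of the 15 libraries (4 glands, namely both of week 8, replicate 2 of week 10 and 1 of week 12, and 5 tumors, namely replicate 1 of week 8, 2 and 3 of week 10, and 1 and 2 of week 12). The inhibitory Smads, which are induced by the pathway and feed back on it, were not called. Smad6 was at 13.7, 18.0 and 21.2 CPM in WT glands and 12.4, 18.5 and 30.9 CPM in WT tumors (0.07 ± 0.19 SE, adjusted p = 0.930), and at 5.47, 14.6 and 15.8 and 10.6, 16.3 and 20.2 CPM in KO glands and tumors (0.36 ± 0.19 SE, adjusted p = 0.272). Without KO gland replicate 1 of week 12, Smad6 passed in KO mice (log2 fold change 0.69, adjusted p = 0.00946). Smad7 was at 160.2, 202 and 248 CPM in WT glands and 116, 167 and 184 CPM in WT tumors (-0.35 ± 0.09 SE, adjusted p = 0.00684), under the fold limit, and at 171, 180.1 and 205 and 146, 159.6 and 186 CPM in KO glands and tumors (-0.17 ± 0.09 SE, adjusted p = 0.280).

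The Id genes encode partners of basic helix-loop-helix factors that cannot bind DNA. Id1 and Id2 rose in both genotypes and Id3 fell in WT tumors. Id1 was at 15.0, 21.4 and 28.3 CPM in WT glands and 25.8, 46.8 and 55.9 CPM in WT tumors, and at 12.0, 19.6 and 29.9 CPM in KO glands and 33.0015, 40.3 and 62.0 CPM in KO tumors. The KO groups did not overlap and the WT groups did. Its log2 fold changes were 1.05 ± 0.22 (SE, adjusted p = 0.000760) and 1.12 ± 0.22 (SE, adjusted p = 0.000552). Id2 was at 11.0, 15.0 and 22.7 CPM in WT glands and 21.6, 41.5 and 81.6 CPM in WT tumors, and at 10.4, 21.4 and 30.9 and 27.8, 47.4 and 75.8 CPM in KO glands and tumors, with a narrow overlap in each genotype. It rose by 1.46 ± 0.26 (SE, adjusted p = 0.000158) in WT and 1.27 ± 0.26 (SE, adjusted p = 0.000954) in KO mice. Id3 was at 54.8, 85.4 and 114 CPM in WT glands and 24.1, 50.9 and 63.5 CPM in WT tumors, and at 35.3, 55.7 and 71.3 and 27.8, 39.9 and 56.3 CPM in KO glands and tumors, which overlapped. Id3 fell in WT tumors (-0.93 ± 0.17 SE, adjusted p = 0.000242), and its KO value of -0.48 ± 0.17 (SE, adjusted p = 0.0677) was a fold change of 1.39, under the limit, which it passed without KO gland replicate 2 of week 10 or KO tumor replicate 1 of week 12. With each library left out in turn, the KO value ranged from -0.60 to -0.31.

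Tgfbi, a matrix protein induced by TGF-β, ranged widely among WT tumors. They held 2.96, 10.1 and 56.8 CPM and WT glands 2.54, 7.88 and 9.64 CPM. The highest value came from tumor replicate 1 of week 10. Tgfbi was not called in WT mice (1.02 ± 0.50 SE, adjusted p = 0.181), but it passed without WT gland replicate 1 of week 10 or WT tumor replicate 3 of week 10, without the read filter (adjusted p = 0.0309) and with ribosomal RNA as a covariate (0.0736). With each library left out in turn, the WT log2 fold change of Tgfbi ranged from 0.53 to 1.45. In KO mice tumors held 2.64, 7.54 and 15.6 CPM and glands 0.936, 2.74 and 5.37 CPM, and Tgfbi rose (1.47 ± 0.53 SE, adjusted p = 0.0671). The KO call was lost without any 1 of 6 of the 15 libraries (gland replicates 2 of week 8, 1 of week 10 and 2 of week 12, and tumor replicates 1 of week 8, 3 of week 10 and 2 of week 12), with adjusted p up to 0.191, and with weeks 8 and 10 only (0.244).

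The list of other pathway genes held 54 genes that are no members, such as further ligand binders, activators of latent TGF-β, Smad regulators and targets. In WT tumors 17 of them fell (31.5%, against 9.53% of all genes and 13.1% of protein-coding genes) and 6 rose (11.1% against 6.21% and 7.49%). In KO tumors 10 fell (18.5% against 5.44% and 8.18%) and 6 rose (11.1% against 5.16% and 7.05%). By p in WT mice, the first were Bmper, a BMP binder (-1.83 ± 0.21 SE, adjusted p = 5.34e-07), Fbn1, the fibrillin to which LTBPs attach (-3.35 ± 0.40 SE, adjusted p = 6.77e-07), Fstl1, a follistatin-like protein (-3.37 ± 0.46 SE, adjusted p = 5.29e-06), Nbl1, a BMP antagonist (-1.38 ± 0.21 SE, adjusted p = 2.43e-05), and Tll1, a protease related to Bmp1 (-2.27 ± 0.35 SE, adjusted p = 2.68e-05). In KO mice the same genes had -1.36 ± 0.22 (SE, adjusted p = 5.74e-05), -1.79 ± 0.39 (SE, adjusted p = 0.00172), -2.84 ± 0.46 (SE, adjusted p = 6.23e-05), -0.94 ± 0.21 (SE, adjusted p = 0.00273) and -1.36 ± 0.36 (SE, adjusted p = 0.00874). Tll1 lost its KO call without 1 library (KO gland week 8 replicate 1, adjusted p = 0.139), and the other calls of these 5 genes held without each library in turn, with the WT value of Tll1 at -1.65 without gland replicate 1 of week 10. Fbn1 and Fstl1 are abundant in fibroblasts, of whose 10 markers 6 fell in WT mice and 2 in KO mice, and the part of fibroblasts was not tested. Endoglin (Eng), a co-receptor of TGF-β and BMPs, was at 10.9, 22.7 and 30.4 CPM in WT glands and 1.77, 3.19 and 20.6 CPM in WT tumors, which overlapped, and fell in WT (-2.23 ± 0.35 SE, adjusted p = 2.71e-05) and KO tumors (-2.29 ± 0.35 SE, adjusted p = 3.56e-05), where its value was -1.47 without gland replicate 1 of week 12. Id4, the remaining Id gene, was at 11.6, 33.3 and 74.5 CPM in WT glands and 2.91, 6.99 and 16.6 CPM in WT tumors, with overlap, and fell in both genotypes (-2.24 ± 0.36 SE, adjusted p = 4.32e-05 and -2.43 ± 0.36 SE, adjusted p = 2.55e-05). Itgb8, the integrin β8 subunit that activates latent TGF-β, rose in WT (0.92 ± 0.16 SE, adjusted p = 8.55e-05) and KO tumors (1.20 ± 0.16 SE, adjusted p = 5.41e-06). Nedd4l, a ubiquitin ligase that acts on Smads, rose in both as well (0.75 ± 0.12 SE, adjusted p = 4.65e-05 and 0.71 ± 0.12 SE, adjusted p = 0.000145). Chrdl1, a chordin-like gene, rose by 2.504 in WT and 4.126 in KO tumors at low levels. Its medians were 0.0606 CPM in WT glands, 0.346 in WT tumors, 0.0136 in KO glands and 0.333 in KO tumors. Chrdl2 rose by 4.088 in KO tumors, from a median of 0.0612 to 0.404 CPM. These calls of Chrdl1 and Chrdl2 held without each library in turn. Tgif2 fell in both genotypes (-0.712 and -0.993), and its WT call was lost without gland replicate 1 of week 8.

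Week by week, fewer members passed than in the averages, and each comparison rests on 3 tumors and 2 glands. In WT mice 14 members were called at week 6 (23.3% of members, against 5.86% of all genes and 9.34% of protein-coding genes), 15 at week 8 (25.0% against 9.19% and 14.2%) and 14 at week 10 (23.3% against 6.13% and 9.76%). In KO mice 6 were called at week 8 (10.0% of members, against 2.49% of all genes and 4.13% of protein-coding genes), 11 at week 10 (18.3% against 5.66% and 9.29%) and 13 at week 12 (21.7% against 6.11% and 10%). Gdf5 and Tgfb3 were called higher in all 6 weekly comparisons (3.33% of members, against 0.43% of all genes), and Bmp3, Bmp7, Bmpr1b and Inha lower (6.67% against 0.783%). In all, 24 members were called in at least 1 week (40% against 15.2% of all genes) and 36 in none. Tgfbr1 (weeks 6 and 10), Bmpr2 (week 6), Bmp1 (week 8) and Smad3 (week 10) were called lower in single WT weeks, and Acvr1 in KO mice at week 12 (-0.65 ± 0.20 SE, adjusted p = 0.0651), though not in the average of that genotype. Single libraries carried some counts. At week 6 the count was 3 without WT gland replicate 2, 7 without tumor replicate 1 and 8 without tumor replicate 2. For KO mice, no member was called at week 8 without gland replicate 1 and 3 were called without tumor replicate 2, at week 10 the count was 7 without gland replicate 1 and 5 without gland replicate 2, and at week 12 it was 8 without gland replicate 2.

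Within single weeks, the effect on Id3 in WT mice ranged from -0.29 ± 0.30 (SE, adjusted p = 0.683) at week 6 to -1.66 ± 0.30 (SE, adjusted p = 0.000903) at week 10. The 3 tumors of week 6 held 60.6, 56.3 and 63.5 CPM of Id3, and those of week 10 held 30.8, 24.1 and 33.2 CPM. Tgfb2 had 1.10 ± 0.23 (SE, adjusted p = 0.00508) at week 6 and 0.15 ± 0.22 (SE, adjusted p = 0.813) at week 10, where 1 gland stood at 46.4 CPM and the tumors at 34.4, 48.9 and 45.4 CPM. Differences between weeks in the tumor effect were not tested.

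**Figure D4:**
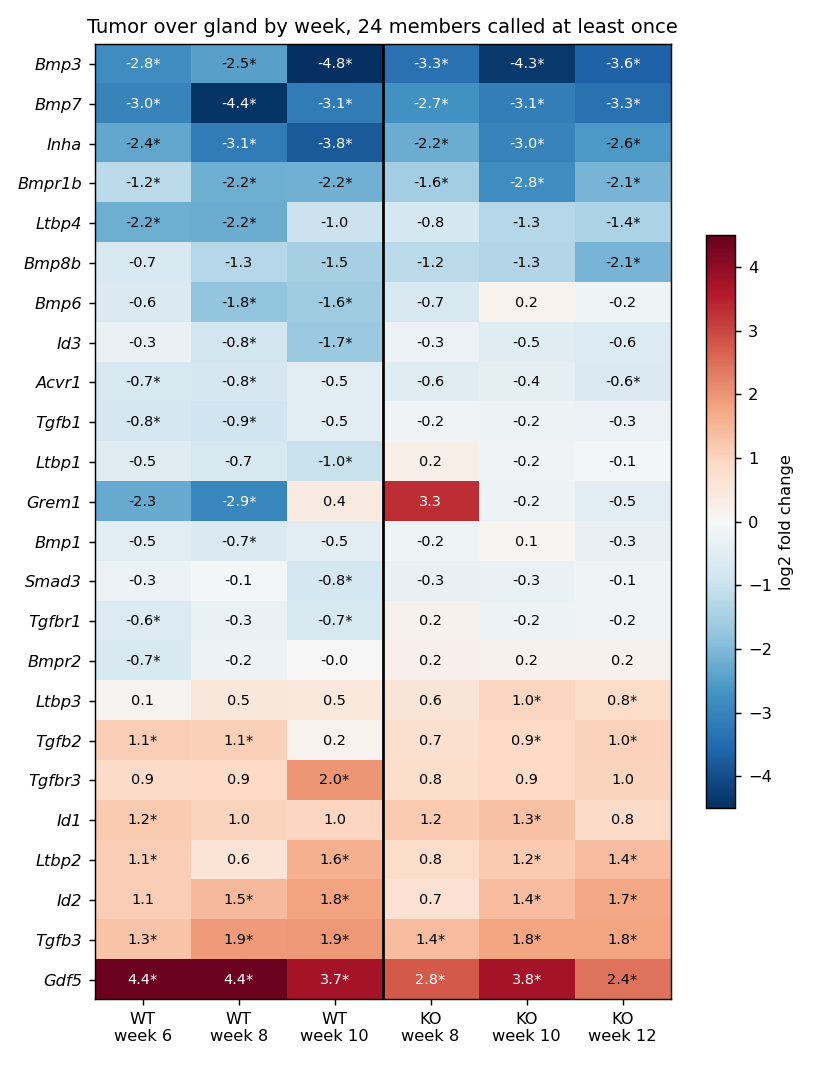
Log2 fold change of tumors over glands in each week for the 24 members called in at least 1 week, with WT weeks left of the line and KO weeks right of it. Asterisks mark calls. Gdf5 and Tgfb3 in the lowest rows are red, and Bmp3, Bmp7, Inha and Bmpr1b in the top rows are blue, in all 6 columns.

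The next question was whether loss of PTHrP changed the members. The study follows tumors from hyperplasia through adenoma to carcinoma, and its hyperplasia stage is week 6 in WT tumors and week 8 in KO tumors. Tumors of the same week may therefore be at different stages in WT and KO mice, and genotype and stage cannot be told apart in the comparison of weeks 8 and 10 or in the interaction given below. Between WT and KO tumors of weeks 8 and 10 (6 against 6), no member was called, where 0.512% of all genes were. At an unadjusted p under 0.05, 6 of the 60 members and 3996 of the 36527 genes passed, and DESeq2 also called 0 members. The same totals hold for such counts below. The lowest p belonged to Tgfb2 and Ltbp3, both lower in WT tumors. At weeks 8 and 10, WT tumors held 54.0, 59.9 and 37.8 CPM and 34.4, 48.9 and 45.4 CPM of Tgfb2, and KO tumors 55.0, 68.3 and 73.6 CPM and 55.1, 54.8 and 61.4 CPM. Apart from 1 WT tumor of week 8, the WT values lay under all KO values. The log2 difference was -0.40 ± 0.14 (SE, adjusted p = 0.260). Ltbp3 stood at 253, 272 and 276 CPM and 258, 301 and 168 CPM in WT tumors and at 237, 376 and 330.3 CPM and 272, 414 and 369 CPM in KO tumors, with overlap. Its log2 difference was -0.39 ± 0.14 (SE, adjusted p = 0.270). Without the read filter, Bmp7 was called lower in WT tumors (adjusted p = 0.0651). With WT tumors of weeks 6, 8 and 10 set against KO tumors of weeks 8, 10 and 12 (9 against 9), an alternative chosen after seeing the data in which age differs between the genotypes, edgeR again called 0 members, where 1.11% of all genes were, and 6 members and 4832 of all genes had p under 0.05. Ltbp3 had -0.43 ± 0.11 (SE, adjusted p = 0.0530) there, under the fold limit.

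Between WT and KO glands of weeks 8, 10 and 12 (6 against 6), no member was called either, where 0.906% of all genes were. Here 10 members and 4514 of all genes had p under 0.05, and DESeq2 called 0 members. Tgfbr1 and Ltbp1 had the lowest p. Tgfbr1 stood at 113 and 143 CPM in WT glands of week 8, 169.8 and 161 at week 10 and 90.6 and 98.8 at week 12, and at 98.3 and 79.8, 121 and 108 and 101 and 101 CPM in KO glands. WT glands were higher at weeks 8 and 10 and not at week 12. The log2 difference of 0.32 ± 0.09 (SE, adjusted p = 0.0907) passed the limit on p, but its fold change of 1.25 did not reach 1.5. Ltbp1 stood at 279 and 494, 460.3 and 519.8 and 181 and 195 CPM in WT glands of these weeks and at 159 and 132, 324 and 267 and 222 and 262 CPM in KO glands. Its log2 difference was 0.59 ± 0.18 (SE, adjusted p = 0.140), and it passed when WT gland replicate 1 of week 8 was left out (adjusted p = 0.0647), along with Id3, when the fit held only these groups (0.0448) and without the read filter (0.00902). Smad6 was higher in all 6 WT glands (19.1 and 18.4 CPM at week 8, 16.2 and 17.7 at week 10 and 17.3 and 17.3 at week 12) than in all 6 KO glands (15.8 and 14.9, 9.54 and 14.2 and 15.8 and 5.47 CPM), at a log2 difference of 0.50 ± 0.21 (SE, adjusted p = 0.321), and was picked for that pattern after its values were seen. It was the only 1 of 60 members with WT glands wholly above KO glands, where 0.438% of all genes were, and none lay wholly below (0.339% of all genes). Smad6 alone was called without KO gland replicate 1 of week 12, and Gdf10, on few reads, was called without WT gland replicate 1 of week 10 and also without the read filter. Of the 54 other pathway genes, 1 was called between the glands (1.85%), namely Cdkn2b, a cell cycle inhibitor induced by TGF-β (0.79 ± 0.17 SE, adjusted p = 0.0358). Its call was lost with ribosomal RNA as a covariate (0.164), which took a median of 6.20% of the reads in KO glands and 0.0116% in WT glands, and without any 1 of 5 of the 12 libraries (KO gland replicate 2 of weeks 8, 10 and 12, WT gland replicate 2 of week 8 and 1 of week 12), with adjusted p up to 0.183.

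The difference between the genotypes in the tumor effect (tumor over gland in WT minus the same in KO, weeks 8 and 10) was tested directly as an interaction. No member was called, where 0.00548% of all genes were, and 7 members and 2038 of all genes had p under 0.05. DESeq2 called 0 members. Tgfbr1 (-0.50 ± 0.14, SE, adjusted p = 0.598) and Ltbp1 (-0.91 ± 0.28, SE, adjusted p = 0.772) had the lowest p. Both effects were lower in WT than in KO mice, and both genes were higher in WT glands of these weeks than in KO glands, as given above. So the members called in WT mice and not in KO mice were not shown to respond differently. Without the read filter Ltbp1 was called (adjusted p = 0.0561). Over WT weeks 6, 8 and 10 and KO weeks 8, 10 and 12, edgeR called 0 members in the interaction as well, where 0.14% of all genes were called, and 15 members and 3784 of all genes had p under 0.05. In the interaction of weeks 8 and 10, the members not shown to differ include Tgfb1, with a difference of -0.51 ± 0.26 (SE, adjusted p = 0.922), and Id3, with -0.84 ± 0.30 (SE, adjusted p = 0.829). Over WT weeks 6, 8 and 10 and KO weeks 8, 10 and 12, Tgfb1 had -0.51 ± 0.21 (SE, adjusted p = 0.394). Id3 was closer to no difference there, at -0.45 ± 0.25 (SE, adjusted p = 0.566).

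**Figure D5:**
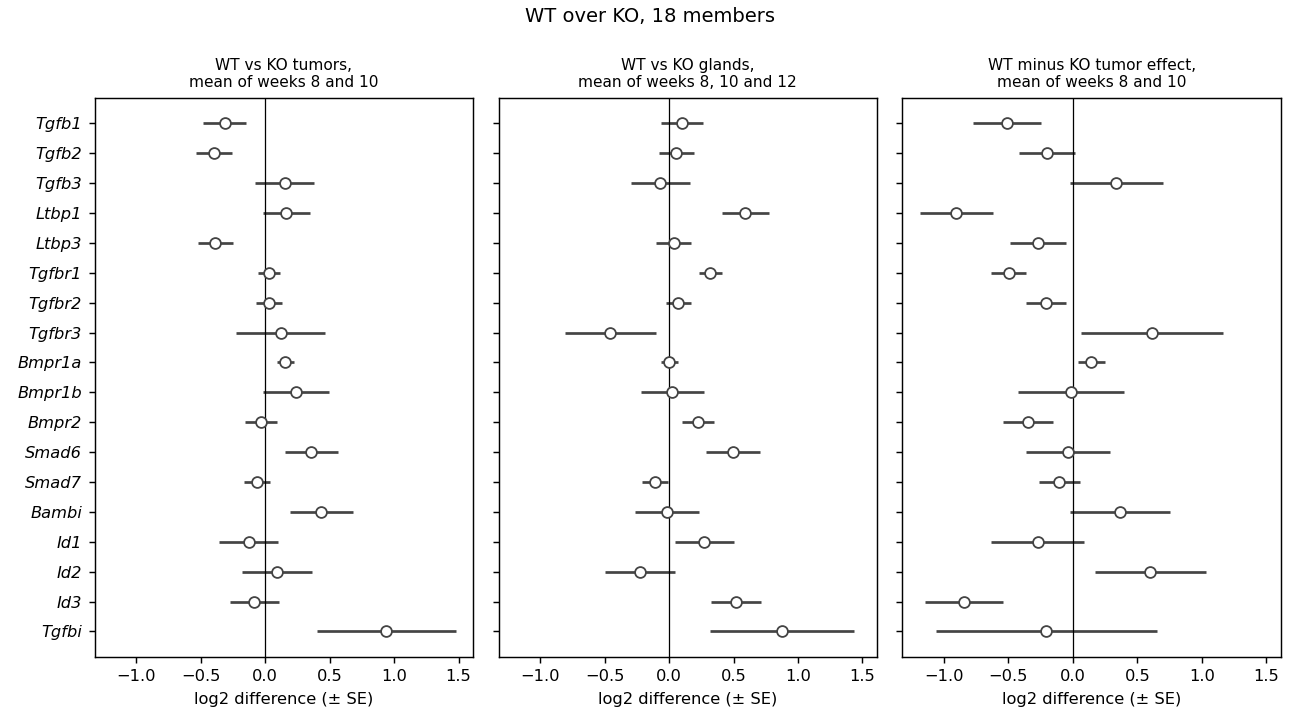
Log2 difference (± SE) of WT over KO for 18 members, in tumors (left), in glands (middle) and in the tumor effect (right). All points are open because none was called. Tgfb2 and Ltbp3 lie left of 0 in tumors, Ltbp1 and Tgfbr1 right of 0 in glands, and Ltbp1, Id3 and Tgfbr1 left of 0 in the tumor effect.

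The last comparisons set late tumors against early tumors of a genotype (3 against 3). Between WT tumors of weeks 10 and 6 no member was called by edgeR, where 0.011% of all genes were. Of the 60 members 14 had p under 0.05, and of the 36527 genes 3122 did. DESeq2 called 3 members, namely Id3 (adjusted p = 0.0536), Bmpr2 (0.0576) and Inha (0.0960). The share of all genes that DESeq2 called is not given here, so these 3 cannot be set against it. Id3 was lower at week 10 in all 3 tumors, by a log2 difference of -1.03 ± 0.27 (SE, adjusted p = 0.424) in edgeR, and Bmpr2 was higher in all 3, at 159, 253 and 132 CPM against 113, 117 and 114 CPM at week 6 (0.66 ± 0.18 SE, adjusted p = 0.424). Inha stood at 0.499, 0.165 and 0.0611 CPM at week 10 and 0.660, 0.444 and 1.26 CPM at week 6, with overlap (-1.65 ± 0.55 SE, adjusted p = 0.486). Separation with 3 against 3 was not particular to Id3 and Bmpr2. In 9 of 60 members every tumor of week 10 lay above every tumor of week 6, where 6.15% of all genes did so, and in 8 they lay below, where 5.17% did. Without the read filter Id3 (0.00692), Bmpr2 (0.0301) and Acvr1b (0.0868) were called, in a fit of these groups alone Id3 (0.0408) and Fst (0.0683), and without WT tumor replicate 3 of week 10 Bmpr2. Between KO tumors of weeks 12 and 8 edgeR called 0% of all genes and no member, and DESeq2 called 0 members. Here 3 members and 2878 of all genes had p under 0.05, and Ltbp1 was called without KO tumor replicate 1 of week 8.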

How the data were processed

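RNA sequencing was done on 33 libraries of sorted GFP+ cells, 1 per mouse. Per the labels and the methods of the study, ribosomal RNA was depleted from total RNA, libraries were made with a stranded (dUTP) kit, and the authors aligned reads with HISAT to Gencode M16 genes and then to GRCm38, discarded duplicate reads (Picard 1.128) and made the deposited raw counts of each gene, used here, with HTSeq. The strand option of HTSeq is not given in the sources used here. A table of values normalised with DESeq2 by the authors was not used. Rows that name no gene (111, with 0.0778% of the reads) were left out.

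Groups were taken from the labels. Genes with at least 10 reads in all were fitted in R 4.3.3 with edgeR 4.0.16 (TMM, quasi-likelihood test, 1 coefficient for each of 14 groups of genotype, tissue and week). Contrasts averaged weeks with equal weight, and the lone WT tumor of week 12 had a coefficient of its own. A gene was called at a Benjamini-Hochberg adjusted p under 0.1, over all 36527 genes, and a fold change over 1.5. All adjusted p-values are from this test unless DESeq2 1.42.0 is named. SE was obtained from the test's F statistic, as the size of the log2 change over the root of F. Fits without 1 library kept the dispersion trend of the whole fit. The code was tested on simulated data. Depth of 28419983 reads or more leaves members with few reads imprecise.

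Members and lists were chosen with earlier results of these data known. Values were given for the 10 called members of largest change in each averaged comparison, for called members or else the 2 of lowest p in genotype comparisons, for those called in the comparisons of late with early tumors, for Tgfb1 to Tgfb3, Tgfbr1 to Tgfbr3, Bmpr1a, Bmpr1b, Bmpr2, Id1 to Id3, Smad6, Smad7, Bambi and Tgfbi, and for up to 8 other pathway genes by p in each averaged comparison. Other members were named after their values were seen. Alternatives were DESeq2, its size factors in edgeR, no read filter, only the groups compared, ribosomal RNA as a covariate, the replicate number as a block, each library left out, weeks 8 and 10 only, and WT weeks 6, 8 and 10 against KO weeks 8, 10 and 12. The last 2 were chosen after seeing the data. Promoter windows came from RefSeq (GRCm38.p6), and exon lengths and coordinates from Gencode M21.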

Additional observations from a re-analysis of the deposited data

How the results depend on the processing

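Between tumors and glands averaged over weeks, the count of called members was 23 in WT mice and ranged from 18 to 24 when 1 library was left out, and it was 17 in KO mice and ranged from 13 to 18. Under DESeq2, its size factors in edgeR, no read filter, the groups compared alone and the share of ribosomal RNA as a covariate, it lay between 22 and 23 in WT and between 16 and 17 in KO mice. With weeks 8 and 10 only, an alternative chosen after seeing the data, it was 19 and 12. The replicate numbers of the labels do not pair the samples (median correlation of deviations 0.03 for same-numbered and -0.01 for other libraries), and with the replicate number as a block 20 members were called in WT and 15 in KO mice.

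Single weeks moved more. In KO mice at week 8, 6 members were called, 11 with DESeq2, 12 in a fit of the groups compared alone and 11 without the read filter, and at week 10 a fit of these groups alone called 18 in place of 11. The shares of all genes called under the settings of this section are not given. A change in the members therefore cannot be told apart from a change over all genes. When 1 library was left out, the WT counts spanned 3 to 11 (week 6), 10 to 12 (week 8) and 10 to 17 (week 10), and the KO counts spanned 0 to 8 (week 8), 5 to 10 (week 10) and 8 to 14 (week 12). The cause was not tested. With a single gland left, that library is assumed to vary like the other groups.

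Where no member was called, other settings called a few. Without the read filter 1 was called between WT and KO tumors, 2 between the glands, 1 in the difference of the tumor effect and 3 between WT tumors of weeks 10 and 6. A fit of the groups compared alone called 1 between the glands and 2 between WT tumors of weeks 10 and 6, and DESeq2 called 3 in the latter. Leaving out 1 library gave 0 to 2 between the glands, 0 to 1 between WT tumors of weeks 10 and 6 and 0 to 1 between KO tumors of weeks 12 and 8. The log2 fold changes of Smad6 in WT mice (-0.0726 to 0.19 without 1 library), Tgfbr2 in WT mice (-0.17 to 0.0144) and Tgfbr2 in KO mice (-0.0035 to 0.13) changed sign, and none of them was called. Groups of 2 or 3 mice limit the single weeks, and members with few reads, such as Inhbe and Gdf7, are limited by depth.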

Other observations

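The single WT tumor of week 12 entered no comparison. It held 3.08 CPM of Gdf5, 450.0 CPM of Tgfb3 and 669 CPM of Ltbp2, the members that lay higher in every tumor than in every gland within the averaged comparison of each genotype. The 6 WT glands of that comparison ranged over 0.0365 to 0.272 CPM for Gdf5, 79.6 to 116 CPM for Tgfb3 and 387 to 908 CPM for Ltbp2, so that Ltbp2 in this tumor lay within the gland range. Bmp7 was at 0.747 CPM in it, Bmp3 at 0.0295 CPM, Inha at 0.324 CPM and Bmpr1b at 0.285 CPM. WT tumors of weeks 6 to 10 ranged over 2.36 to 4.55 CPM for Gdf5, 173 to 595 for Tgfb3, 1058 to 1959 for Ltbp2, 1.63 to 6.95 for Bmp7, 0.142 to 1.87 for Bmp3, 0.0611 to 1.26 for Inha and 0.501 to 1.06 CPM for Bmpr1b.

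The 2 WT glands of week 12 entered the comparison of WT with KO glands and not that of WT tumors with WT glands. They held 90.6 and 98.8 CPM of Tgfbr1 and 181 and 195 CPM of Ltbp1, below the ranges of the 6 earlier WT glands (113 to 169.8 CPM and 272 to 519.8 CPM). This difference between weeks was noticed in the values and was not tested.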
